A study of Mus musculus with 8 samples.

Results

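Of the Ifit family 4 genes were followed, Ifit1, Ifit2, Ifit3 and Ifit3b, chosen by gene name out of 20354 genes listed for oligodendrocytes. The Ifit1-like genes Ifit1bl1 and Ifit1bl2 were also listed and were not counted as members. Single live brain cells of mice aged 24 months were profiled by 10x Chromium 3' sequencing in 8 libraries, from gray matter (frontal cortex) and white matter (optic tract, medial lemniscus and corpus callosum). Wild-type mice (strain C57BL/6 per the labels) gave 2 gray and 2 white matter libraries, in which replicate numbers 1 and 2 each mark 1 pool of mice that supplied both tissues. The sample titles call these batch 1 and batch 2, so that mouse pool and batch cannot be told apart. The pooling comes from the list of mice given with the study, by which every wild-type library and replicate 1 of each Rag1-/- tissue held several mice, and replicates 2 and 3 of Rag1-/- white matter a single mouse each. Rag1-/- mice, which have no mature T or B cells and keep natural killer (NK) cells, gave 1 gray and 3 white matter libraries. By title, replicate 1 of each Rag1-/- tissue was batch 1, and replicates 2 and 3 of white matter were both batch 2. Their strain is labelled NOD.129S7(B6)-Rag-1tm1Mom/J, whereas the methods of the study name the Rag1 mutation on a C57BL/6J background. Genotype also coincided with the experiment and the release of the counting software, so these cannot be told apart. The upper limit on unique molecular identifiers (UMIs) per cell differed as well, and values under a common limit are given below. The members were followed in 15604 oligodendrocytes of 8 clusters named by the authors, in 7421 Rag1-/- microglia of 5 named clusters, and in cells with 3 or more UMIs of the T cell receptor subunits Cd3d, Cd3e and Cd3g, of which there were 406 in wild-type libraries and 31 in Rag1-/- libraries.

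Ifit genes (interferon-induced proteins with tetratricopeptide repeats) are switched on when interferons bind their receptors and transcription factors, among them Stat2 and Irf9, assemble on interferon-stimulated response elements. Ifit1 protein binds viral RNA whose cap lacks the methylation found on host messages and blocks its translation. The human protein IFIT3 associates with IFIT1 and stabilises it, Ifit2 binds RNA and is known for restricting virus spread in the nervous system, and Ifit3b is a mouse paralog of Ifit3. In the brain, cells that have sensed interferon, among them microglia and oligodendrocytes, are commonly recognised by such genes.

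The 4 members lie on chromosome 19 within 99.3 kb (chr19:34550694-34650009, mm10), all on the plus strand, in the order Ifit2, Ifit3, Ifit3b and Ifit1. Their promoters are shown so that 4 genes of the same locus can be compared. In the 250 bases before the transcription start given by RefSeq, the core of the interferon-stimulated response element, a pair of GAAA copies separated by any 2 bases, was searched on both strands. Ifit1, Ifit3 and Ifit3b each held 2 matches, all on the opposite strand, which reads TTTCACTTTC and then TTTCAGTTTC along the gene. Ifit2 held none before either of its 2 RefSeq starts. In interferon-responsive microglia Ifit2 stood at 607 to 873 CPM (a scaled count explained further on). Of the gene lists followed below, counting genes with a RefSeq promoter, 7 of 17 antiviral effectors and 4 of 10 interferon ligands held a match. So did 1 of 5 transcription factors, 1 of 2 negative regulators and 2 of 9 other genes listed at the locus. None of 7 receptors and kinases and none of 5 sensors did. Whether the matches bear on the levels was not tested. Of 32851 RefSeq promoters of this length, 2.98% held 1 or more matches and 0.18% held 2 or more. A match describes letters and not occupancy, and none says only that this pattern was not in this window. Stretches that end before the first exon follow (GRCm38.p6 from RefSeq, plus strand, 5′ to 3′, matches in capitals), covering chr19:34640744-34640870 for Ifit1, chr19:34583329-34583528 for Ifit3, chr19:34607757-34607956 for Ifit3b and chr19:34550494-34550693 for Ifit2.
Ifit1: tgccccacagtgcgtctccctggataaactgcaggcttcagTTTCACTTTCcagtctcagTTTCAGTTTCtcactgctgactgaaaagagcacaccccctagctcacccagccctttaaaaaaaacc
Ifit3: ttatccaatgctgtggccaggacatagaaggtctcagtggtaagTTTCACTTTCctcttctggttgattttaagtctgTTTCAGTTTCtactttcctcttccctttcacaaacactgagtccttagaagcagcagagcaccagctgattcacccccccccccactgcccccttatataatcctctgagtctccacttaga
Ifit3b: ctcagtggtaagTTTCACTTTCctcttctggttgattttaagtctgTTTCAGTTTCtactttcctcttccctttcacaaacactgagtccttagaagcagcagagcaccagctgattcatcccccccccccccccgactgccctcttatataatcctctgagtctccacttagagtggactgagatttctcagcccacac
Ifit2: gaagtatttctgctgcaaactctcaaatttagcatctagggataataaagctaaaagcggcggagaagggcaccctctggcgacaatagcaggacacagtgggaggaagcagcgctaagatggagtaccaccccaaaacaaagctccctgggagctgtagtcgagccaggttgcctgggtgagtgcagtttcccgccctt

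Ifit3 and Ifit3b are near copies: their transcripts were 98.0% identical over 1697 aligned bases. Of all stretches of 91 bases in Ifit3, 34.7% also occurred exactly in Ifit3b, and 6.34% of those in its last 500 bases did. Of those in the last 500 bases of Ifit3b, 0.0% occurred in Ifit3. Reads from shared stretches could have been split or dropped by the counting, and such stretches were few in the last 500 bases. How many reads came from them was not counted, and the separate levels carry this uncertainty. No stretch of 91 bases of Ifit1 occurred in Ifit2 or Ifit3. In the Ifit1-like gene Ifit1bl2, 3.98% of the stretches of Ifit1 occurred, and 0.0% of those in the last 500 bases of Ifit1.

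Libraries held 284 to 4106 oligodendrocytes, with median depths of 8669 to 12926 UMIs per cell, and the 7 oligodendrocyte markers (Mbp and others) were detected in all 8. Levels are given as CPM, counts per 1e6, which are the UMIs of a gene scaled to a fixed total of UMIs in the same cells, which in 3' counting needs no division by length. RNA markers of other cells were present at low and unequal levels. The 7 microglia markers together made up 847 and 93.2 CPM in oligodendrocytes of the wild-type gray matter libraries, 536 and 70.7 CPM in wild-type white matter, and 96.1 to 289 CPM in Rag1-/- libraries, so that both libraries of the first wild-type pool had the most. The 7 T cell markers made up 9.33 and 2.42 CPM in oligodendrocytes of wild-type white matter, 2.54 and 0.237 CPM in wild-type gray matter, and 0.0485 to 0.251 CPM in Rag1-/- libraries. Their part in the results below was not tested. No cell type known to lack these genes was at hand to set a level for free RNA. Pairs of libraries shared 0 to 15 cell barcodes, at most 0.321% of the smaller library.

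The first comparison asked whether white matter oligodendrocytes of old wild-type mice differed from those of gray matter. Ifit1, Ifit3 and Ifit3b were high in white matter and near 0 in gray matter, whereas Ifit2 stood between 26.7 and 30.9 CPM in all 4 libraries. Ifit1 stood at 16.3 and 3.57 CPM in the 2 white matter libraries and at 0.363 and 0.158 CPM in the 2 gray matter libraries. Ifit3 stood at 15.3 and 9.22 CPM in white matter and at 0.726 and 0.633 CPM in gray matter. Ifit3b stood at 4.66 and 2.69 CPM in white matter and at 0.363 and 0 CPM in gray matter. For these 3 genes the groups did not overlap, and replicate 1 of white matter was above replicate 2. Ifit2, by contrast, stood at 26.7 and 27.9 CPM in white matter and at 30.9 and 28.2 CPM in gray matter, slightly lower in both white matter libraries. Gray matter values rested on 3 UMIs of Ifit1, 10 of Ifit3 and 1 of Ifit3b.

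**Figure D1:**
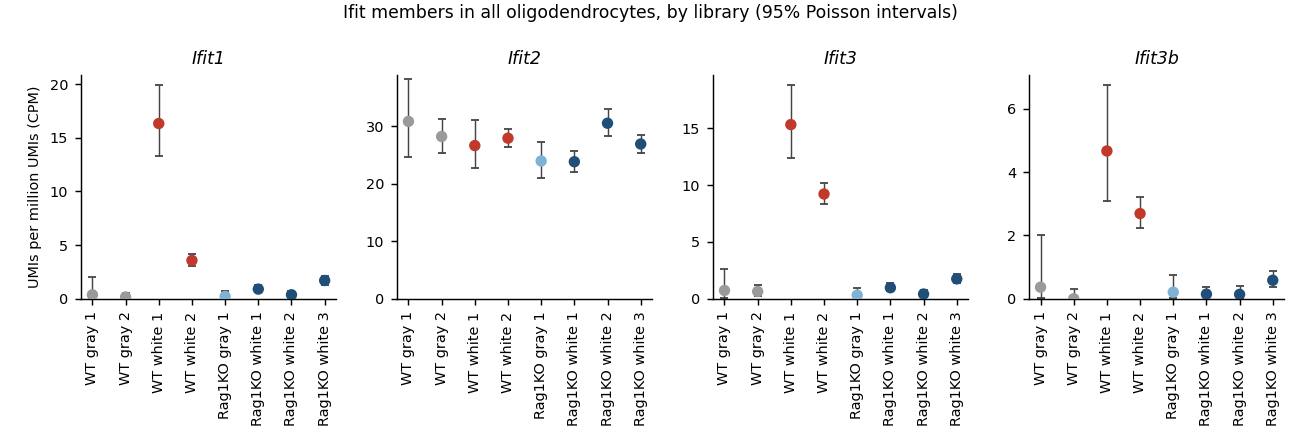
Level of each Ifit member in all oligodendrocytes of each of the 8 libraries, in CPM (linear axes from 0), with 95% Poisson intervals that cover counting error only. For Ifit1, Ifit3 and Ifit3b both wild-type white matter libraries sit above every other library, and Ifit2 lies between 23.8 and 30.9 CPM in all 8.

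White over gray, the pooled ratio was 26.1 for Ifit1 (95% interval 8.84 to 128), 15.3 for Ifit3 (8.26 to 32.1), 45.0 for Ifit3b (7.96 to 1790) and 0.968 for Ifit2 (0.869 to 1.08), where the intervals cover counting error only. In edgeR's quasi-likelihood test across libraries, Ifit3 was the 1 member of 4 that passed, at 4.19 on the log2 scale (SE 0.70, adjusted p = 0.032). Over all genes, 0.742% (97 of 13069) were called higher. Ifit1 (5.52, SE 1.20, adjusted p = 0.0926) and Ifit3b (5.53, SE 1.37, adjusted p = 0.146) had larger differences that did not pass, and Ifit2 was at −0.09 (SE 0.16, adjusted p = 0.957). The filter on low counts asked for 0.586 CPM in 1 library or more. Ifit2 reached it in all 8 and Ifit3 in 6, while Ifit1 and Ifit3b reached it in 4 and 3, all of white matter and with both wild-type libraries among them, so that these 2 could be tested for tissue only because white matter was high. Every library of white matter was above every library of gray matter for 19.1% of genes tested, and below for 19.2%. DESeq2 called Ifit1, Ifit3 and Ifit3b, among 1.34% of genes called higher. With the mouse pool as a block, which leaves 1 residual degree of freedom, edgeR called the same 3 members, among 12.2% of 11309 genes called in either direction, and the adjusted p of Ifit3 was 1.03e-25. With 1 library left out, Ifit3 was at 3.82 to 4.51, Ifit1 at 4.12 to 6.28 and Ifit3b at 3.32 to 9.33. The call of Ifit3 was not kept in every such fit, and the number of all genes called varied between them as well. Fits without a wild-type library keep 1 library in a group, so only sizes are given for them here. Without replicate 1 of Rag1-/- white matter Ifit3 was not called, while 93 of 12561 genes were called higher. Ifit1 and Ifit3b passed in none of the fits without a Rag1-/- library.

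The second comparison asked whether white matter oligodendrocytes of Rag1-/- mice, without mature T or B cells, differed from those of wild-type mice. Ifit1, Ifit3 and Ifit3b were lower in all 3 Rag1-/- libraries than in either wild-type library. Ifit1 stood at 0.895, 0.367 and 1.70 CPM in Rag1-/- white matter, Ifit3 at 0.967, 0.413 and 1.75 CPM, and Ifit3b at 0.143, 0.138 and 0.582 CPM. Replicate 3 was the highest of the Rag1-/- libraries for each of the 3. Ifit2 stood at 23.8, 30.5 and 26.9 CPM, a range that included both wild-type values. Ifit3 was the 1 member that passed, at −3.39 on the log2 scale (SE 0.47, adjusted p = 0.00897 by edgeR), against 0.199% (26 of 13069) of all genes called lower. Ifit1 was at −3.13 (SE 0.70, adjusted p = 0.122), Ifit3b at −3.44 (SE 0.75, adjusted p = 0.118) and Ifit2 at 0.05 (SE 0.13, adjusted p = 0.972). Without replicate 1 of wild-type white matter Ifit1 was at −1.74 (adjusted p = 0.741), and without replicate 2 it was at −3.90 and passed (adjusted p = 0.0254). Without replicate 3 of Rag1-/- white matter Ifit3b was at −4.56 (adjusted p = 0.101) and Ifit3 at −4.04. Wild-type over Rag1-/-, the pooled ratio was 4.50 for Ifit1 (3.56 to 5.71), 8.38 for Ifit3 (6.79 to 10.4), 8.58 for Ifit3b (5.79 to 13.1) and 1.03 for Ifit2 (0.968 to 1.11). Pooling gives large libraries more weight: the library means of Ifit1 were 9.95 and 0.987 CPM, which lie farther apart than its pooled ratio, and the intervals leave out the spread between libraries. All Rag1-/- libraries lay below both wild-type libraries for 17.8% of genes tested. This comparison shares the wild-type white matter libraries with the first. With cells of both genotypes under 1 common UMI limit, Ifit3 was at −3.49 (adjusted p = 0.0107 by edgeR). The call of Ifit3 was kept when any 1 of the 8 libraries was left out, and DESeq2 called Ifit1, Ifit3 and Ifit3b, among 0.474% of genes called lower. With fewer interferon-responsive cells in a library, fewer cells of that kind and less RNA per cell cannot be told apart in these sums.

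Within Rag1-/- mice, gray matter oligodendrocytes held Ifit1 at 0.207 CPM, Ifit3 at 0.310 CPM, Ifit3b at 0.207 CPM and Ifit2 at 24.0 CPM in the single library. White matter against gray matter, no member passed. The log2 differences by edgeR were 2.30 (SE 1.53) for Ifit1, 1.81 (SE 1.03) for Ifit3, 0.59 (SE 1.45) for Ifit3b and 0.20 (SE 0.18) for Ifit2, with adjusted p from 0.639 to 0.918, while 0.436% of genes were called. None of the 4 had an unadjusted p under 0.05, while 9.64% of all genes did, and DESeq2 called 0 of the 4. The gray matter values rested on 2, 3 and 2 UMIs of Ifit1, Ifit3 and Ifit3b. The difference between the tissue effects of the genotypes did not pass for any member (unadjusted p = 0.0675 for Ifit3b, the lowest of the 4 in edgeR) nor for any of 13069 genes (0.0% called), of which 1.81% had an unadjusted p under 0.05 and 3 (0.023%) were called by DESeq2.

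**Figure D2:**
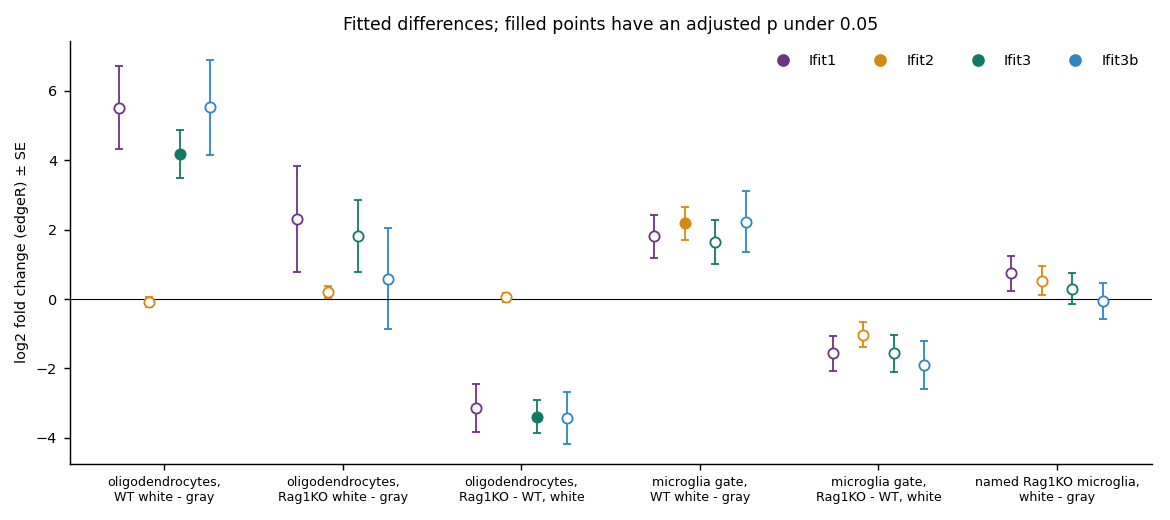
Log2 fold changes with standard errors from edgeR for the 4 members in 6 comparisons; filled points passed an adjusted p of 0.05. Ifit3 passed in both oligodendrocyte comparisons that involve wild-type white matter, at 4.19 and −3.39, and Ifit2 passed in microglia-gated cells of wild-type mice, at 2.18.

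Counted by cells, oligodendrocytes with 2 or more members made up 2.43% and 0.974% of wild-type white matter libraries, 0.352% and 0.179% of wild-type gray matter, 0.295%, 0.245% and 0.415% of Rag1-/- white matter and 0.190% of Rag1-/- gray matter. Both wild-type white matter libraries were above the other 6. White minus gray was 1.44 percentage points in wild-type mice (1.70% ± 1.03 against 0.265% ± 0.123, SD, n = 2 each; two-sided exact permutation p = 0.3333, the smallest that 2 against 2 libraries allow). Rag1-/- minus wild-type in white matter was −1.38 percentage points (0.318% ± 0.0872, n = 3; exact permutation p = 0.1, the smallest possible). Thinned to 2000 UMIs per cell the differences were 0.303 and −0.285 percentage points, with no such cell in wild-type gray matter, and with 2 UMIs needed for a member they were 0.523 and −0.495. Cells with 1 or more members did not follow this order, since most carried Ifit2 alone. They made up 23.9% ± 2.31 of wild-type white matter, 25.1% ± 0.205 of wild-type gray matter and 23.9% ± 5.20 of Rag1-/- white matter oligodendrocytes. For 1 or more of the other 3 members, a count chosen after the data were seen, the shares were 3.61% ± 2.34 in wild-type white matter, 0.886% ± 0.241 in wild-type gray matter and 1.02% ± 0.234 in Rag1-/- white matter.

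The members were then read across the 8 oligodendrocyte clusters, in libraries with 20 or more cells of a cluster. In the interferon-responsive oligodendrocytes (IRO) Irf7 stood at 36.1 CPM, against 0.715 CPM in the other oligodendrocytes, and Oasl2 at 40.1 and 0.409 CPM. Not every antiviral effector listed was higher in IRO: Ifitm3 stood at 1.12 CPM there and at 1.49 CPM in the others. These levels are descriptions, because the clusters were drawn from the same cells and genes. Ifit2 was spread over all of them. Its median level was 50.4 CPM in IRO (26.0 to 114 CPM over 4 libraries), 36.7 in Oligo2c (26.6 to 40.4), 36.2 in Oligo2b (26.0 to 42.4), 31.7 in Oligo2a (20.2 to 39.5), 29.3 in Oligo1b (24.5 to 32.7) and 25.5 in Oligo1c (20.8 to 27.8). It was 17.0 CPM in Oligo1a (4.94 to 20.2) and 16.8 CPM in the age-related oligodendrocytes (ARO; 11.1 to 19.4). In this order each cluster overlapped the next except Oligo1c and Oligo1a, so that Oligo1a and ARO formed a low pair.

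Ifit1, Ifit3 and Ifit3b, summed, were highest in IRO, at a median of 182 CPM (27.3 to 569). Oligo2c followed at 8.04 CPM (1.21 to 50.01), and the other 6 clusters had medians of 0.549 to 1.48 CPM. In that order every cluster overlapped the next. IRO was small. It held 29 and 123 cells in wild-type white matter and 39, 17 and 33 in Rag1-/- white matter. As shares of oligodendrocytes these were 5.87% and 2.996% in wild-type and 1.28%, 1.04% and 0.855% in Rag1-/- white matter. Gray matter held 6 IRO cells in both wild-type libraries together and 0 in the Rag1-/- library. In IRO of wild-type white matter Ifit1 stood at 268 and 46.3 CPM, Ifit3 at 227 and 146 CPM, Ifit3b at 73.7 and 44.8 CPM and Ifit2 at 70.8 and 114 CPM, the last value with 112 UMIs in 1 cell. In IRO of Rag1-/- white matter Ifit1 stood at 19.1, 10.1 and 89.7 CPM and Ifit3 at 8.19, 5.05 and 34.7 CPM, while Ifit3b came to 0, 0 and 1 UMIs. Without IRO, the wild-type white against gray difference of Ifit3 was 2.999 on the log2 scale (adjusted p = 0.186 by edgeR) and the difference between genotypes −1.98 (adjusted p = 0.264), so that neither was called. IRO was drawn from the same cells and genes and held 88.5% and 47.9% of the UMIs of Ifit1, Ifit3 and Ifit3b in wild-type white matter. Leaving it out was therefore bound to lower these differences, and the result is a description.

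**Figure D3:**
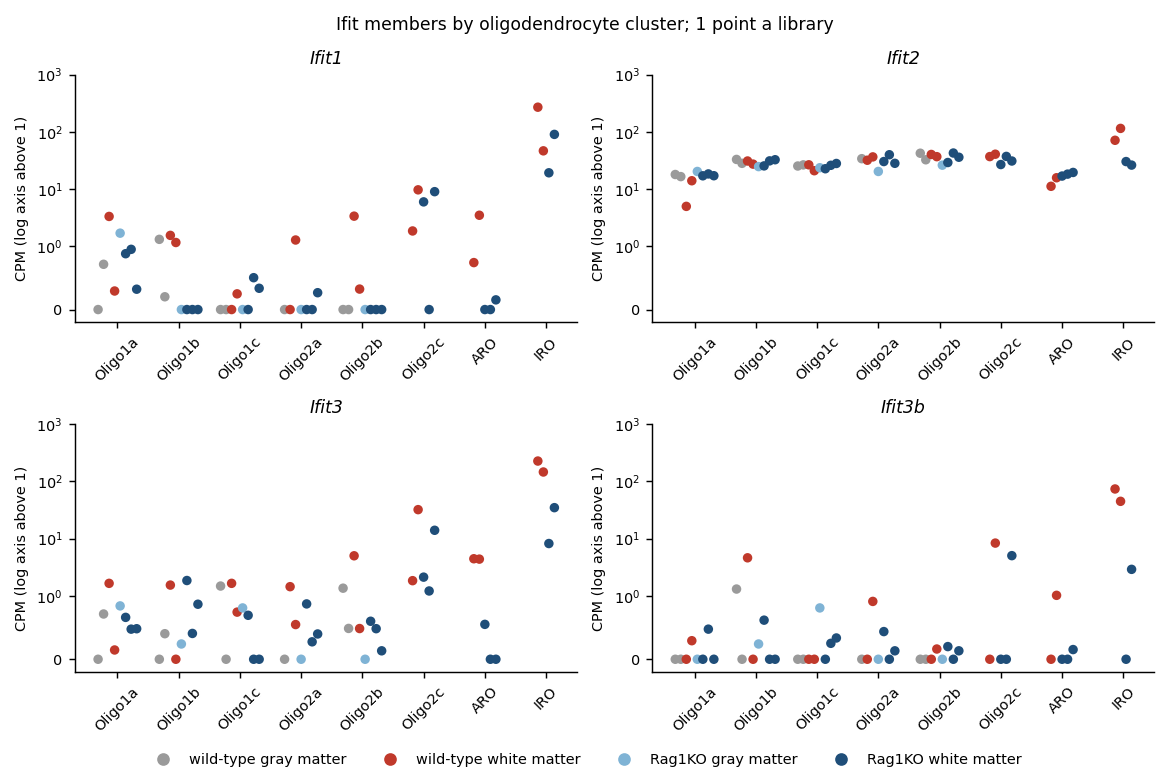
Level of each member by oligodendrocyte cluster, in CPM on an axis that is logarithmic above 1; each point is 1 library with 20 or more cells of the cluster, coloured by genotype and tissue. Ifit2 is detected in every cluster, while Ifit1, Ifit3 and Ifit3b are highest in the IRO cluster.

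The UMIs of Ifit1, Ifit3 and Ifit3b sat in very few cells. Of 1166 UMIs in all oligodendrocytes, 856 (73.4%) were in 14 cells that held 10 or more each. Of those 14 cells, 11 came from wild-type white matter and 3 from Rag1-/- white matter. By cluster, 7 were IRO (2 and 4 by library in wild-type white matter and 1 in replicate 3 of Rag1-/- white matter), 4 were Oligo2c and 3 were ARO. In the first wild-type white matter library 2 cells held 84.4% of the UMIs of these 3 genes, in the second 9 cells held 77.5%, and in replicate 3 of Rag1-/- white matter 2 cells held 78.9%. The cell with the most carried 175. Most IRO cells had none: 75.9% and 82.9% in wild-type white matter and 82.1%, 88.2% and 97.0% in Rag1-/- white matter. IRO made up 5.87% and 2.996% of wild-type white matter oligodendrocytes and held 88.5% and 47.9% of these UMIs. Ifit2 was different: 3413 cells (21.9%) had 1 or more of its 4513 UMIs. Intervals and tests that treat UMIs as independent do not reflect this clustering.

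**Figure D4:**
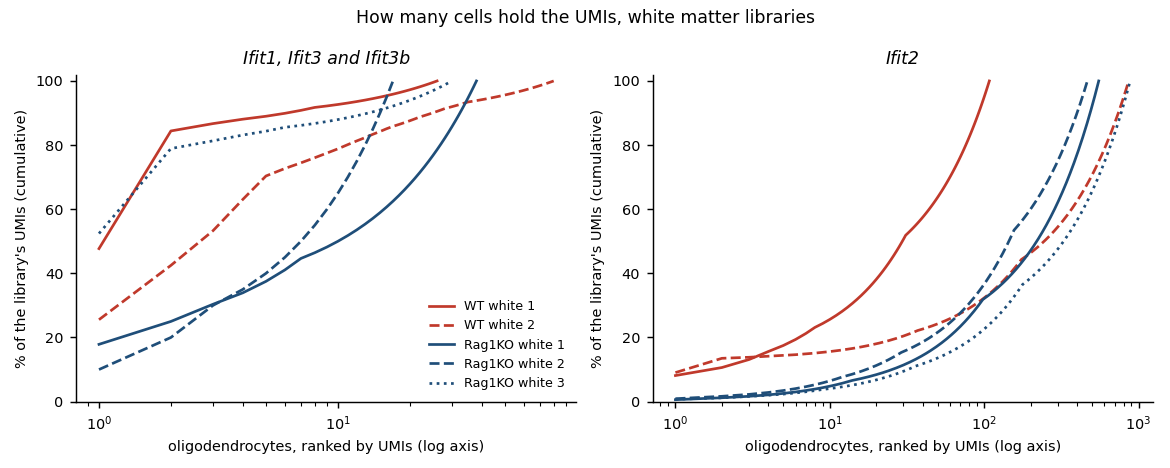
Cumulative percentage of a library's UMIs held by its oligodendrocytes, ranked from most to fewest UMIs (log axis), for Ifit1, Ifit3 and Ifit3b summed and for Ifit2, in the 5 white matter libraries. In the first wild-type library 2 cells hold 84.4% of the UMIs of the 3 genes, whereas the curves of Ifit2 climb over many more cells.

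All 4 members occurred together in 8 of the 14 cells, and Ifit1, Ifit3 and Ifit3b together in 10. Most of the Ifit2 UMIs of the 14 cells were in 3 of them. These held 112, 55 and 13, 2 of the 3 being IRO, and the other 11 cells held 16 together, 4 of them none. Summed, Ifit2 stood at 962 CPM in the cells with 10 or more UMIs of the other 3 genes, against 49.8 CPM in 49 cells with 2 to 9, 32.2 CPM in 144 cells with 1 and 25.8 CPM in 15397 cells with none. In the 11 cells without the 3 highest it stood at 101.7 CPM. In the 7 IRO cells among the 14 it stood at 1389 CPM, and at 76.9 CPM in the 5 of them without the 2 highest. The 14 cells had a median depth of 14422 UMIs, against 10077 in cells with none. Pooled over libraries, genes of the microglia gate described below were found in 57.1% of the 14 cells and in 54.8% of cells with none. The 14 cells held 0 UMIs of Cd3d, Cd3e and Cd3g.

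Over all oligodendrocytes, co-detection set Ifit1, Ifit3 and Ifit3b apart from Ifit2. Ifit1 was found in 22.1% of cells with Ifit3 (27 of 122) and in 0.394% of cells without it. Ifit3 was found in 38.6% of cells with Ifit3b (17 of 44) and in 0.675% of cells without it. Ifit2, found in 21.8% of cells without Ifit1, was found in 33.0% of cells with it (29 of 88), in 37.7% of cells with Ifit3 and in 52.3% of cells with Ifit3b. Cells with a member were deeper, with medians of 12278 UMIs with Ifit3 and 10088 without. Thinned to 2000 UMIs per cell, which left out 71 cells, Ifit2 was found in 7.69% of 65 cells with any of the other 3 members and in 4.81% of cells with none. In IRO the thinned shares of Ifit2 were 22.2% of 18 cells and 4.37%, and outside IRO 2.13% of 47 cells and 4.82%. These shares pool cells over libraries and are descriptions.

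In microglia, all 4 members were concentrated in the interferon-responsive microglia (IRM) of the Rag1-/- libraries. In the gray matter library and the 3 white matter libraries, with 15, 37, 13 and 9 IRM cells, Ifit3 stood at 1781, 985, 1272 and 919 CPM and Ifit2 at 864, 607, 873 and 764 CPM. Ifit1 stood at 259, 178, 223 and 207 CPM, and Ifit3b at 486, 211, 223 and 207 CPM. Tissues overlapped for Ifit2, and for the other 3 members the single gray matter library was the highest. In the other 4 clusters (Homeostatic1, Homeostatic2, WAM and Activated) Ifit3 stood between 0 and 32.4 CPM and Ifit2 between 0 and 32.4 CPM. Of 74 IRM cells, 67 (90.5%) had 2 or more members and 28 had all 4, at a median depth of 5694 to 7080 UMIs per library. Every one of the 40 IRM cells with Ifit1 also had Ifit3. Outside IRM, 88 of 7347 microglia (1.20%) had 2 or more members. IRM are defined by such genes, so these levels carry no test.

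Over all named Rag1-/- microglia, no member passed the test of white against gray matter. Ifit2 stood at 14.2 CPM in gray matter and at 12.9, 27.4 and 13.4 CPM in white matter, and Ifit3 at 23.6 CPM in gray matter and at 21.7, 39.6 and 14.7 CPM in white matter. The log2 differences were between −0.05 (SE 0.52) for Ifit3b and 0.74 (SE 0.50) for Ifit1, with adjusted p from 0.545 to 0.975 by edgeR, while 3.0% of genes were called. None of the 4 had an unadjusted p under 0.05, while 15.4% of all genes did, and DESeq2 called 0 of the 4. Replicate 2 of white matter was the highest for all 4 members. Without replicate 1 of white matter Ifit2 passed (0.70, SE 0.25, adjusted p = 0.0422 by edgeR).

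Wild-type microglia carried no cluster names here and were taken by a gate of 10 or more UMIs summed over microglia genes, among them P2ry12, Tmem119, Cx3cr1 and Csf1r, which 97.8% of the named Rag1-/- microglia passed. Of the gated Rag1-/- cells, 91.8% had a microglia name. The 7 oligodendrocyte markers made up 1194 and 4385 CPM in gated cells of wild-type white matter and 1364 and 1659 CPM in those of gray matter. The part of such RNA in the results was not tested. In microglia-gated cells Ifit2 was higher in white matter than in gray matter of wild-type mice. It stood at 48.4 and 25.4 CPM in white matter and at 10.8 and 8.84 CPM in gray matter, a log2 difference of 2.18 (SE 0.47, adjusted p = 0.0347 by edgeR), against 3.26% of 12664 genes called higher. White matter was above gray matter in every library for 11.8% of genes. DESeq2 called Ifit1, Ifit2 and Ifit3b, among 4.6% of genes called higher. The other 3 did not pass. Ifit1 stood at 23.4 and 8.41 CPM in white matter and at 5.04 and 5.26 CPM in gray matter. Ifit3 stood at 109 and 33.5 CPM in white matter and at 34.6 and 22.0 CPM in gray matter, and so overlapped. Ifit3b stood at 29.7 and 4.99 CPM in white matter and at 5.76 and 3.38 CPM in gray matter, which overlapped as well. Replicate 1 of white matter was the highest for each member. Without it the difference of Ifit2 was 1.62, the lowest of the 8 fits that left out 1 library, and the highest was 2.71. In those fits the difference was 0.89 to 2.53 for Ifit1, 0.519 to 2.396 for Ifit3 and 0.455 to 3.199 for Ifit3b. The call of Ifit2 was not kept in every such fit, and the number of all genes called varied between them as well. Fits without a wild-type library keep 1 library in a group, so only sizes are given. With the mouse pool as a block all 4 members passed (adjusted p = 0.000113 for Ifit2 and 0.0265 or lower for the others, among 14.4% of 10975 genes).

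Between genotypes, microglia-gated cells of white matter showed no member that passed. In Rag1-/- white matter Ifit2 stood at 13.3, 26.0 and 14.3 CPM and Ifit3 at 20.4, 37.0 and 14.1 CPM, and both overlapped the wild-type values. Log2 differences were −1.57 (SE 0.51) for Ifit1, −1.02 (SE 0.37) for Ifit2, −1.56 (SE 0.53) for Ifit3 and −1.90 (SE 0.70) for Ifit3b, with adjusted p from 0.365 to 0.448 by edgeR, where 0.892% of genes were called. All 4 had an unadjusted p under 0.05, as did 8.69% of all genes, and DESeq2 called 0 of the 4. Without replicate 1 of wild-type white matter they were between −0.65 and −0.13, and without its replicate 2 Ifit3b passed (−2.88, SE 0.48, adjusted p = 0.0439).

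T cells of wild-type white matter also carried the members. In the 52 and 328 gated cells of its 2 libraries Ifit3 stood at 225 and 94.4 CPM, Ifit1 at 142 and 50.9 CPM, Ifit3b at 80.6 and 18.8 CPM, and Ifit2 at 29.7 and 30.2 CPM. Replicate 1 was the higher for the first 3, as it was in oligodendrocytes and microglia, and the 2 values of Ifit2 were close. One or more members were detected in 53.8% (28 of 52) and 44.2% (145 of 328) of the cells, a mean of 49.0% ± 6.82 (SD, n = 2), at median depths of 7746 and 6666 UMIs. Thinned to 2000 UMIs per cell, the mean was 28.02% ± 7.52. In the 23 gated cells of the second wild-type gray matter library Ifit1 stood at 64.5 CPM, Ifit2 at 59.9, Ifit3 at 59.9 and Ifit3b at 9.22, each resting on 14 UMIs or fewer. The gated cells also carried RNA of other cells: the microglia markers made up 3672 and 1209 CPM in the 2 white matter libraries, and the oligodendrocyte markers 3002 and 8286 CPM. Oligodendrocyte markers were found in 100% and 96.3% of the gated cells, and microglia markers in 94.2% and 54.6%. Leaving out part of the gated cells for markers of other cells kept 35 and 276 cells, and the share with 1 or more members was 44.8% ± 5.39. Most of the cells kept still had such RNA, so this share is not free of it.

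In the 31 cells of Rag1-/- libraries that passed the same gate, 1 UMI of Ifit1 and 1 of Ifit3 were found, both among the 24 cells of replicate 1 of white matter. Cd4, which marks a T cell lineage, was at 0 UMIs in the gated cells of all 4 of these libraries, and Cd8a, which marks another, was not listed in their table. In those 24 cells Trbc2, a T cell receptor constant region, was found in 87.5% and the 7 T cell markers, of which 2 had no UMI, together made up 2828 CPM. Ncr1, a marker of NK cells, was found in 16.7% of the 24. These markers point in different directions, and the cells are described by their gate alone. In wild-type T cells Ifit3 was found in 63.2% of cells with Ifit1 (48 of 76) and in 18.8% without, and Ifit2 in 28.9% of cells with Ifit1 and in 15.5% without.

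**Figure D5:**
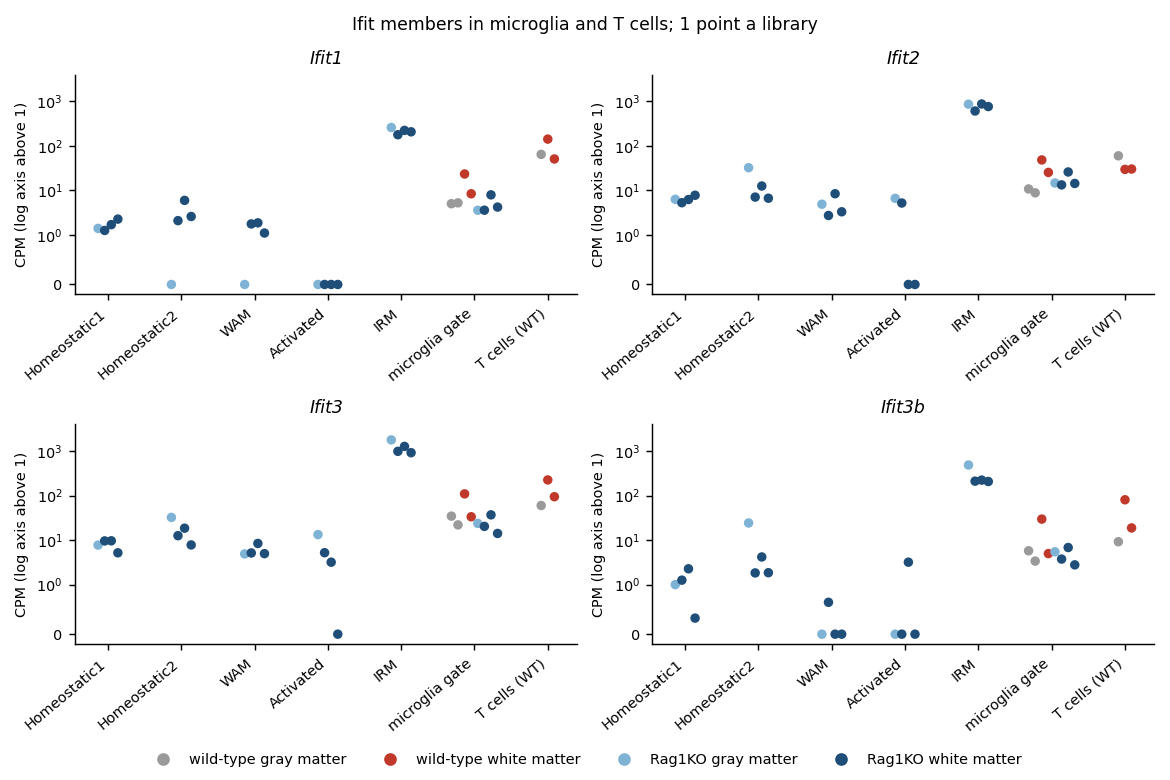
Level of each member in the 5 named clusters of Rag1-/- microglia, in microglia-gated cells and in wild-type T cells (libraries with 20 or more gated T cells), in CPM on an axis that is logarithmic above 1; each point is 1 library. IRM lies above all other sets for every member, with Ifit3 at 919 to 1781 CPM.

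Set side by side in wild-type white matter, Ifit3 stood at 15.3 and 9.22 CPM in oligodendrocytes, 109 and 33.5 CPM in microglia-gated cells and 225 and 94.4 CPM in T cells. The microglia and T cell ranges overlapped and that of oligodendrocytes did not. Ifit2 stood at 26.7 and 27.9 CPM in oligodendrocytes, 48.4 and 25.4 CPM in microglia-gated cells and 29.7 and 30.2 CPM in T cells, where the microglia range included the others.

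Of 10 interferon ligands, Ifng and Ifnk had 3 UMIs each in all oligodendrocytes and the other 8 were not listed in the count tables used here. Per the methods of the study, genes found in fewer than 3 cells were removed, so no level is given for them. Ifng, the ligand of the type II receptor, had 130 of its 133 UMIs in wild-type libraries within the gated T cells, in 88 of 406 cells, and 83 UMIs in all Rag1-/- libraries. Ifnk, a type I interferon, had 4 UMIs in wild-type libraries, 1 of them in microglia-gated cells, and was not listed in the table of Rag1-/- libraries.

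The receptors and kinases that carry the signal were detected in all groups. Ifnar1 and Ifnar2, which form the type I receptor, stood at 23.3 to 32.04 and 24.6 to 48.3 CPM over the 8 libraries of oligodendrocytes. Ifngr1 and Ifngr2, the type II receptor, stood at 21.6 to 40.3 and 8.57 to 17.1 CPM. None of the 7 tested genes of this list was called in any comparison, with a median log2 difference of −0.05 for wild-type white against gray matter, beside −0.01 for all genes. Of 6 transcription factors, Irf9, the DNA-binding part of the complex that acts on the response element, was called higher in wild-type white matter, as were 0.742% of all genes (15.2 and 13.7 CPM against 5.08 and 3.88; log2 difference 1.76, SE 0.23, adjusted p = 0.0124 by edgeR). Irf7, which amplifies type I interferon induction, was called lower in Rag1-/- than in wild-type white matter, as were 0.199% of all genes (0.823, 0.550 and 0.461 CPM against 4.83 and 2.67; −2.50, SE 0.46, adjusted p = 0.0488). Stat2 stood at 17.8 and 18.5 CPM in wild-type white matter and 12.3 and 13.5 in gray matter, and was not called in oligodendrocytes.

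Of 7 tested RNA and DNA sensors none was called in oligodendrocytes. Ifih1 and Ddx58, which detect viral RNA, stood at 3.16 and 2.21 and at 6.996 and 3.25 CPM in wild-type white matter, against 0.726 and 2.45 and 7.62 and 2.69 CPM in gray matter. Of 18 tested antiviral effectors 4 were higher in wild-type white than gray matter, Oasl2, Ifi27l2a, Ifi27 and Rtp4, and 2 were lower in Rag1-/- white matter, Oasl2 and Ifi27l2a, where 0.742% and 0.199% of all genes were called. Of the 18, 2 (Oasl2 and Oas1a) passed the filter on low counts only through wild-type white matter, so these counts are a description. Ifi27 and Rtp4 were at 0.86 (SE 0.14, adjusted p = 0.0257) and 4.12 (SE 0.76, adjusted p = 0.0459) for tissue, the latter between 2.84 and 4.93 with 1 library left out. Oasl2, a member of the oligoadenylate synthetase-like family, stood at 5.33 and 2.80 CPM in wild-type white matter, 0.363 and 0.237 in gray matter, and 0.107, 0.183 and 0.1698 in Rag1-/- white matter (3.86, SE 0.72, adjusted p = 0.0485, and −4.56, SE 0.53, adjusted p = 0.00259). Since it was tested only because wild-type white matter was high, its calls are no independent support. Ifi27l2a stood at 64.8 and 58.0 CPM in wild-type white matter, 2.90 and 3.72 in gray matter, and 22.8, 8.53 and 18.9 in Rag1-/- white matter (4.12, SE 0.46, adjusted p = 0.00796, and −1.80, SE 0.31, adjusted p = 0.0337). Without IRO, Irf9 and Ifi27l2a were still called for tissue, at 1.74 and 3.72, and no gene named here was called for genotype. IRO was drawn from the same cells and genes, so this is a description. Isg15, Rsad2, Bst2 and Usp18, the last a brake on the type I receptor, were not called. In wild-type white matter they stood at 1.83 and 0.181, 5.33 and 1.13, 14.0 and 4.70, and 4.50 and 3.30 CPM, replicate 1 being higher each time. Of 2 negative regulators tested, Socs3, an inhibitor of cytokine signalling, was higher in wild-type white matter (18.8 and 27.3 CPM against 0.363 and 0.237; 6.46, SE 0.84, adjusted p = 0.0124) and also passed in Rag1-/- mice, where it stood at 10.0, 8.94 and 23.8 CPM in white matter and at 0 in the gray matter library. No gray matter library reached the filter for Socs3, which was tested only because white matter was high. Many of these calls depended on single libraries. Of the 8 fits that left out 1 library, Oasl2 for genotype passed in 8, with the limit given above, Ifi27l2a for tissue in 7 (adjusted p = 0.176 without replicate 2 of wild-type gray matter), Irf9 in 6 (up to 0.264, lost without replicate 2 of either wild-type tissue) and Socs3 for wild-type tissue in 5 (up to 0.286, lost without replicate 2 of white matter or either gray matter library). Ifi27 for tissue and Ifi27l2a for genotype passed in 3 each (up to 0.269 and 0.112), both being lost without any 1 of the 4 wild-type libraries, and also without replicates 2 and 3 of Rag1-/- white matter respectively. Oasl2 and Rtp4 for tissue and Irf7 for genotype passed in 1, the fit without Rag1-/- gray matter, and adjusted p otherwise reached 0.372, 0.383 and 0.288. Socs3 in Rag1-/- mice passed in 4 of 7 (up to 0.0935, lost without replicate 2 of white matter or either wild-type gray matter library). In microglia-gated cells Oasl2 (1.90, SE 0.43, adjusted p = 0.042) and Ifi27l2a (2.31, SE 0.44, adjusted p = 0.0231) were called higher in wild-type white matter, where 3.26% of all genes were, and Stat2 was called lower in Rag1-/- white matter, where 0.892% were called in either direction (−1.02, SE 0.18, adjusted p = 0.0377). With 1 library left out there, the differences were 2.03 to 2.77 for Ifi27l2a, 1.32 to 2.42 for Oasl2 and −1.14 to −0.908 for Stat2. None of the 3 calls was kept in every such fit. In the fits without a Rag1-/- library, where 298 to 415 genes were called higher for wild-type tissue, Ifi27l2a passed each time. Oasl2 was lost without replicate 1 of Rag1-/- white matter. Among those fits Stat2 passed only without Rag1-/- gray matter.

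Of 10 other genes listed at the Ifit locus, 4 (Lipa, Pank1, Kif20b and Stambpl1) could be tested in oligodendrocytes and none was called for tissue or genotype. Lipa, a lysosomal lipase, stood at 45.9 to 72.6 CPM over the 8 libraries. Pank1 and Kif20b had 233 and 219 UMIs in all oligodendrocytes, Stambpl1 30, Ch25h 22, Fas 8 and Slc16a12 3, while the Ifit1-like genes Ifit1bl1 and Ifit1bl2 had 2 and 1, too few to compare with the members. In microglia-gated cells Lipa (0.67, SE 0.15, adjusted p = 0.0394 by edgeR) and Ch25h, a cholesterol hydroxylase (5.75, SE 0.62, adjusted p = 0.00212), were called higher in wild-type white matter, where 3.26% of all genes were. Ch25h ranged from 5.26 to 11.27 with 1 library left out, being highest without replicate 2 of wild-type gray matter. There the gray matter library that remained held no UMI of Ch25h, so that this fold is no bound. Lipa ranged from 0.588 to 0.779 and was not called without replicate 2 of Rag1-/- white matter. Neither call was kept in every such fit. Over 53 pairs of oligodendrocyte cluster and library with 20 or more cells, of which 4 were IRO, the genes whose log2(CPM + 10) followed the summed members most closely out of 11381 were Irf7 (Pearson r = 0.862), Rtp4 (0.859), Gbp7 (0.846), H2-T23 (0.842), Usp18 (0.832), Irgm1 (0.832), Igtp (0.829) and Bst2 (0.817). Among the members, Ifit1, Ifit3 and Ifit3b had r of 0.832 to 0.939 with each other, and Ifit2 had 0.455 to 0.622 with them. The pairs share libraries and clusters, and the values are descriptions.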

How the data were processed

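Live brain cells were profiled in 8 libraries. The deposited count tables hold UMI counts per gene and cell, made by the authors with Cell Ranger (the submitters' notes name release 4 and mm10, and the methods name a different release for each data set) and filtered on genes, mitochondrial share and UMIs per cell. Cluster names are the authors'. Members and lists were chosen with earlier results of these data known.

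UMIs were summed per library and tested with edgeR 4.0.16 (quasi-likelihood test, TMM, filterByExpr) on all 8 libraries, and for named microglia on the 4 Rag1-/- libraries. Adjustment was by Benjamini-Hochberg over all genes with calls at 0.05, after a check on simulated data. Libraries, not cells, were the replicates. Shares were compared by exact permutation tests over libraries, and intervals are 95%. Named beside the members were a fixed set of pathway genes, ligands and locus genes with a UMI in oligodendrocytes, and the 8 genes most like the summed members.

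By the study's list of mice, same-numbered wild-type libraries came from 1 mouse pool (correlation of their deviations 0.428, which 2 libraries a group force to be equal for both pairs). Doublets were not called here. Another table, with 8171 cells of 4 libraries outside this series, was not used. DESeq2, other filters, leaving out libraries and a replicate block were tried as alternatives. Some genes of the lists and of the microglia gate are not reported here by name.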

Additional observations from a re-analysis of the deposited data

Results flagged for a closer look

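The tissues of wild-type mice fell in a different order for Ifit2 in the 2 kinds of cells. In oligodendrocytes every white matter library was lower than every gray matter library, with means of 27.3 and 29.5 CPM (n = 2 each). In microglia-gated cells every white matter library was higher, with means of 36.9 and 9.82 CPM. The difference between the kinds of cells was not tested. The difference in oligodendrocytes did not pass edgeR's test, and for 19.2% of all genes every white matter library was lower there. No group had the 4 libraries that a test for an outlying library needs.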

How the results depend on the processing

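In oligodendrocytes, 97 of 13069 genes were called higher for wild-type white against gray matter. It was 175 with DESeq2, 137 of 16616 without a filter and 91 without IRO. With the mouse pool as a block, 12.2% were called in either direction. For Rag1-/- against wild-type white matter 26 of 13069 were called lower, 62 with DESeq2, 42 of 16616 without a filter and 21 without IRO. Ifit1 and Ifit3b passed the filter only through white matter, so their tissue calls are no independent support. IRO was drawn from the same cells and genes, so counts of members without it are a description. The number of members called for wild-type white against gray matter was 1. It was 3 with DESeq2, 2 without a filter on low counts, 3 with the replicate block (the mouse pool) and 0 without IRO. When 1 library was left out that count fell in some fits, and the number of all genes called varied as well. For Rag1-/- against wild-type white matter the count was 1, and it was 3 with DESeq2, 3 without a filter, 0 without IRO and 1 to 2 with 1 library left out. In microglia-gated cells the count for wild-type tissue was 1, and it was 3 with DESeq2 and 4 with the replicate block. With 1 library left out that count rose in some fits and fell in others, and the number of all genes called varied as well. For genotype there, and for named microglia, it was 0, and 0 to 1 with 1 library left out. With the wild-type pools as a block only 1 residual degree of freedom is left, and the spread is then mostly borrowed from other genes. With batch numbers as a block, the count for genotype was unchanged (Ifit3 −3.29, adjusted p = 0.0456 by edgeR). The same number marks different experiments in wild-type and Rag1-/- mice, so this block adjusts for no batch that the genotypes share. For named microglia no fit with a block was run. There only 1 gray and 1 white matter library shared a number.

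The difference in the share of oligodendrocytes with 2 or more members was 0.709 to 2.16 percentage points for wild-type tissue and −2.11 to −0.656 for genotype with 1 library left out. Counting cells with 1 of the 4 members turned the first to −1.27 and the second to −0.0086, and thinning reduced them to 0.303 and −0.285. The share of T cells with a member was 28.02% after thinning, and 44.2% to 53.8% with 1 library left out. With 1 library left out, signs changed within the ranges of Ifit2 for genotype in oligodendrocytes (−0.0444 to 0.147), Ifit3b for Rag1-/- tissue (−0.553 to 0.91), and in named microglia Ifit3 (−0.115 to 0.567) and Ifit3b (−0.453 to 0.183, with 0.0007 without replicate 1 of white matter). The causes were not tested. Few libraries limit all comparisons, and few UMIs of Ifit1, Ifit3 and Ifit3b outside wild-type white matter limit those of oligodendrocytes.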

Other observations

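Ifit1bl1, an Ifit1-like gene on the opposite strand of the Ifit locus, was found mainly in T cells. Of its 190 UMIs in wild-type libraries, 168 were in gated T cells, in 116 of 406 cells, and 16 were in microglia-gated cells. All Rag1-/- libraries together held 20 UMIs, 10 of them in microglia-gated cells, and oligodendrocytes of both genotypes held 2. No stretch of 91 bases of Ifit1 was shared with Ifit1bl1, although their transcripts were 81.2% identical over 1305 aligned bases.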
